A study of Mus musculus with 8 samples.

Results

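Cholesterol biosynthesis and its control by the sterol regulatory element-binding proteins (SREBPs) were described through 28 genes, taken by name as the enzymes, regulators and sterol handling proteins listed for the pathway. All 28 were found among the 55416 genes of the count table, and all 28 passed the filter on low counts that left 13147 genes for testing. Not every enzyme of the pathway is among the 28, and the others were not analysed here. RNA was sequenced from dorsal epidermis of mice at postnatal day 4, with 4 control libraries (A1, B1, C1 and C6) and 4 libraries labelled *RoraEKO* (A3, B4, C2 and C3). *RoraEKO* mice came from a cross of *Rora flox/flox* with *K14-Cre*, a transgene that drives Cre recombinase from the keratin 14 promoter in basal keratinocytes and their progeny. The controls carry the genotype label WT, and no treatment besides age is given for either group. RORα, the product of *Rora*, is a nuclear receptor that binds DNA and regulates transcription.

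Cholesterol is made from acetyl-CoA through mevalonate, isoprenoid diphosphates, squalene and lanosterol, and the later steps trim lanosterol to cholesterol. SREBP2 is the main activator of these genes. When sterols are low, SCAP escorts SREBPs from the endoplasmic reticulum to the Golgi, where they are cleaved and released. When sterols are plentiful, INSIG1 and INSIG2 hold SCAP back. In the outermost epidermis cholesterol forms the water barrier together with ceramides and free fatty acids, and its sulfated form takes part in shedding of the surface layer.

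The libraries held 17286903 to 26705533 counts. Levels are given as counts per 1000000 counts (CPM) scaled with TMM factors, and the lowest count of any of the 28 genes in any library was 91, in *Soat1*. Values with ± are means with the SD of 4 libraries, unless marked SE. An SE printed with a log2 fold change came from the spread of log2 CPM between libraries, and not from the edgeR fit. Gene-level *Rora* was 212 ± 66.6 CPM in the controls and 196 ± 34.6 CPM in the *RoraEKO* libraries (adjusted p = 0.877, edgeR quasi-likelihood test), so genotype is known here from the labels alone. *Xist* was at 416 and 527 CPM in controls C1 and C6, and *Ddx3y* was at 0 there, whereas the other 6 libraries had *Ddx3y* and almost no *Xist*. The spinous keratins *Krt1* and *Krt10* ran from 17165 to 52399 CPM, while the basal keratin *Krt14* was at 61.1 to 706 CPM, highest in *RoraEKO* B4. The basal keratin *Krt15* was at 55.4 to 126 CPM and was lowest in *RoraEKO* B4. The summed level of 4 spinous markers was 44264 to 69730 CPM in the controls and 85106 to 106043 CPM in the *RoraEKO* libraries, without overlap, although none of the 4 genes passed the test. *Krt1* and *Krt10* carried that sum, while *Krtdap* ran from 2794 to 3668 CPM in the controls and from 2447 to 2823 CPM in the *RoraEKO* libraries, and *Sbsn* from 3250 to 5589 and from 3453 to 4985 CPM. Dermal fibroblast, endothelial and muscle marker sums were at most 10.4, 2.89 and 4.58 CPM. Erythroid sums were 31.8 to 215 CPM in the controls and 83.5 to 666 CPM in the *RoraEKO* libraries, and adipocyte sums 59.3 to 299.7 and 90.01 to 159 CPM, nearly all from *Fabp4*. Fewer cells of a type and less RNA per cell cannot be told apart in such samples.

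None of the 28 genes passed the test as higher in *RoraEKO* epidermis, and *Insig2* passed it as lower. A call needed an adjusted p under 0.05 (quasi-likelihood test of edgeR, Benjamini-Hochberg adjustment across the 13147 genes) and a fold change over 1.5. These cutoffs called 2.3% of all genes tested as higher and 3.22% as lower (5.51% in all), so 1 of 28 lower (3.57%) is near the background. At an unadjusted p under 0.05, 5 members were higher (17.9%, against 7.92% of all genes) and 3 lower (10.7%, against 10.3%), and DESeq2 called 1 member in each direction, *Acat2* and *Insig2*, where it called 3.64% of all genes higher and 4.21% lower. The log2 fold changes (*RoraEKO* minus control) ran from -0.74 to 0.59, with 19 above and 9 below 0. Their median was 0.11, against -0.04 for all genes tested. Over the alternative fits the median of the members ran from 0.052, with library size alone, to 0.27, without controls C1 and C6.

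**Figure D1:**
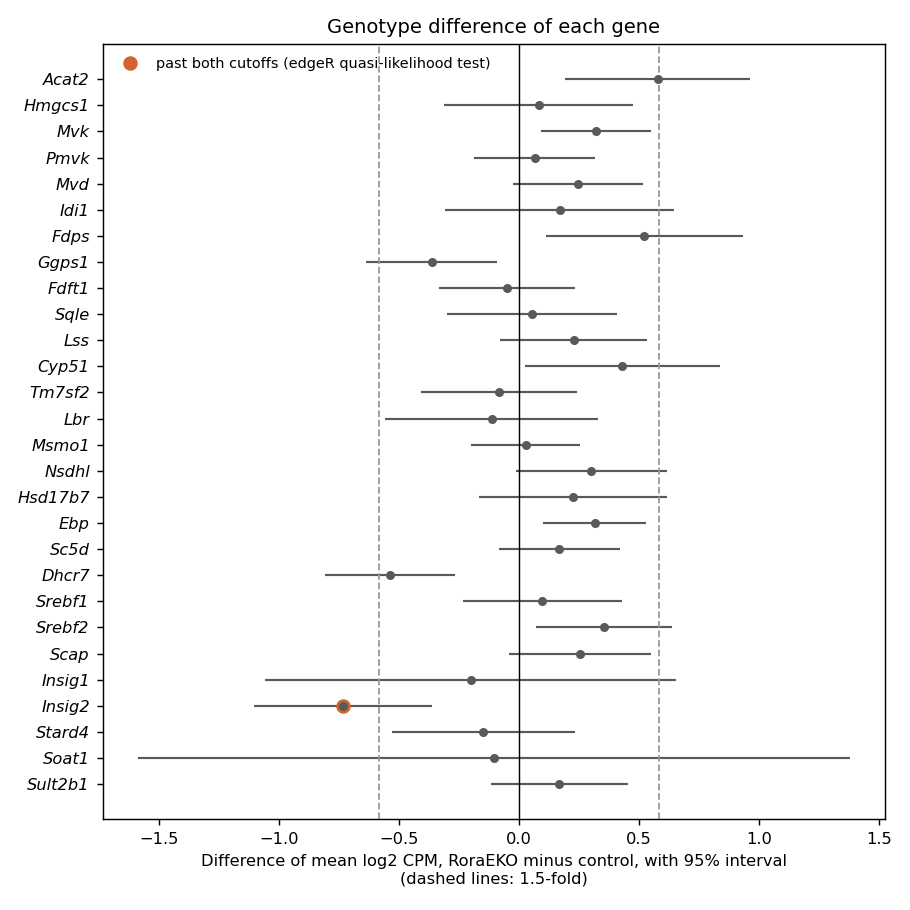
Difference of mean log2 CPM between *RoraEKO* and control libraries for each of the 28 genes, in pathway order (points; bars are 95% intervals from limma, n = 4 per genotype; dashed lines mark a 1.5-fold difference). The interval lay within 1.5-fold in both directions for 16 genes, and the orange point marks *Insig2*, the gene past both cutoffs.

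The width of the intervals shows how closely each gene was measured. The 95% interval of the difference (limma) stayed within 1.5-fold in both directions for 16 of 28 members, or 57.1%, against 35.4% of all genes tested. *Msmo1* had an interval of -0.20 to 0.25 on the log2 scale and *Pmvk* one of -0.19 to 0.32. At the other end, the interval for *Soat1* was -1.59 to 1.38 and that for *Insig1* was -1.06 to 0.66, and both varied several-fold between libraries of the same genotype.

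The 5' flanks of 3 genes are shown because they belong to the called gene *Insig2*, to its relative *Insig1*, and to *Hmgcs1*, the one member whose searched window held the letters TCACNCCAC. They are GRCm39 bases upstream of the Ensembl canonical first exon, within windows that RefSeq gives for 24 of the 28 genes. *Sqle*, *Stard4*, *Fdps* and *Fdft1* had no window and were not searched. Capitals mark AGGTCA (a half-site that nuclear receptors such as RORα bind), CACGTG (an E-box), TCACNCCAC (a sterol regulatory element), CCAAT and GGGCGG (a GC box), each searched on both strands. Only these exact letters were searched, so variant sites are not marked and their absence was not tested. The *Insig2* stretch is chr1:121255795-121256003, minus strand, and holds no match to the letters searched. It lies inside the annotated gene, downstream of another RefSeq start of *Insig2* at 121260318. The *Insig1* stretch is chr5:28276160-28276326, plus strand, and its half-site and E-box overlap by 2 bases. The *Hmgcs1* stretch is chr13:120151637-120151886, plus strand.
Insig2: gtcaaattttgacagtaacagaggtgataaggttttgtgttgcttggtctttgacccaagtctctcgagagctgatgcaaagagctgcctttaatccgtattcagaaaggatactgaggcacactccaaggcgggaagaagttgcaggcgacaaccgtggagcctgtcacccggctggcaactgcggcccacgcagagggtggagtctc
Insig1: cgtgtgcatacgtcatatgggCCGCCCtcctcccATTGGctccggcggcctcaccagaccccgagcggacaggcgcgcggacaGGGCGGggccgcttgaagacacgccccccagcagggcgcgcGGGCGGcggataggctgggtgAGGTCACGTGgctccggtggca
Hmgcs1: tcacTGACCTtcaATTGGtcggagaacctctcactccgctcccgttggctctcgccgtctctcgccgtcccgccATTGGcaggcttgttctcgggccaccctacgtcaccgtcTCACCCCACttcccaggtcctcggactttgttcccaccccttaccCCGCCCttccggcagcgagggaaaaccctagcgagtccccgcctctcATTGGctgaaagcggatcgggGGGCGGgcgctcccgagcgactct

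RefSeq gives 33 windows for these 24 genes, and the window nearest the Ensembl canonical start was used for each. Across the 250 bases upstream of the RefSeq start of that window, CCAAT was found in 18 of 24 members (75.0%) and in 33.8% of all 32851 windows. GGGCGG was found in 20 members (83.3%) against 32.7%. AGGTCA occurred in 3 members, *Dhcr7*, *Hmgcs1* and *Insig1*, or 12.5% against 14.0% of all windows. CACGTG occurred in 4 members, *Hsd17b7*, *Insig1*, *Sc5d* and *Scap*, against 6.02% of all windows, and TCACNCCAC in *Hmgcs1* alone against 1.05%. The set of all windows has several for some genes, and over all 33 windows of the members CCAAT was in 66.7%, GGGCGG in 69.7%, AGGTCA and CACGTG each in 15.2%, and TCACNCCAC in 3.03%. Matches describe these letters only. The window used for *Insig2* held 1 GC box, outside the stretch shown, and another of its 3 windows (chr1:121260319-121260568) held 3 CCAAT boxes.

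The SREBP control genes include the called gene. *Insig2* (ENSMUSG00000003721, chromosome 1 of GRCm39, 121181760 to 121260400, minus strand) encodes the endoplasmic reticulum protein that retains SCAP and, unlike *Insig1*, is not known as a classical SREBP target. Its control libraries A1, B1, C1 and C6 were at 86.6, 96.3, 76.2 and 121 CPM. The *RoraEKO* libraries A3, B4, C2 and C3 were at 49.0, 49.4, 64.5 and 64.1 CPM. Every *RoraEKO* library lay below every control library. The mean fell from 94.99 ± 19.04 to 56.7 ± 8.71 CPM, a log2 fold change of -0.74 ± 0.179 (SE; adjusted p = 0.0315, edgeR quasi-likelihood test). Within the sample title letters A, B and C, whose meaning the labels do not state, the log2 difference was -0.82, -0.96 and -0.58. The direction held in all 18 alternative fits, with log2 fold changes of -0.84 to -0.58, but the call held in 10 of them. It was lost with *Xist* as a covariate (adjusted p = 0.128), without controls C1 and C6 (0.0976), and when control B1 or C6, or any single *RoraEKO* library, was left out (0.0605 to 0.0975).

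**Figure D2:**
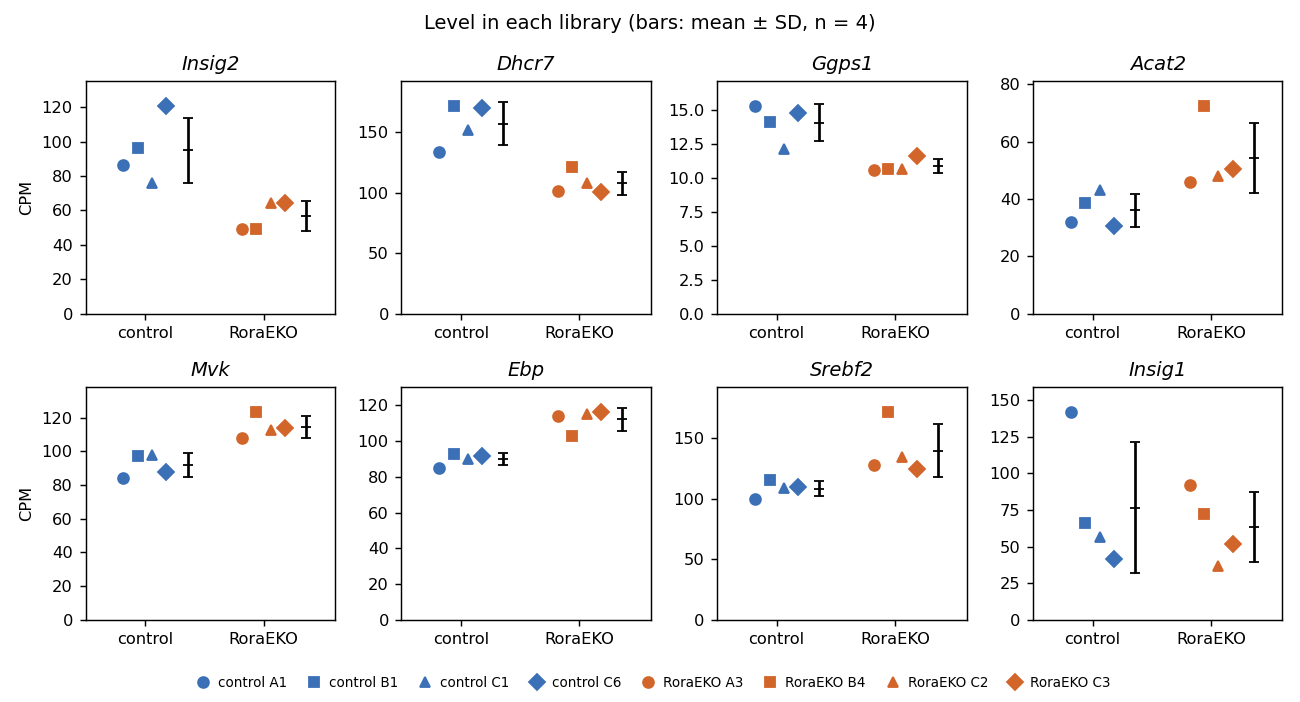
CPM in each library for the 7 genes whose genotypes did not overlap and for *Insig1* (blue symbols control, orange symbols *RoraEKO*; black bars mean ± SD, n = 4 per genotype; axes start at 0). All 4 *RoraEKO* libraries sit below all 4 controls for *Insig2*, *Dhcr7* and *Ggps1*, and above them for *Acat2*, *Mvk*, *Ebp* and *Srebf2*, while *Insig1* overlaps.

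*Insig1* (chromosome 5, 28276315 to 28283668, plus strand), which is itself switched on by SREBPs, showed no such separation. It was at 142, 66.1, 56.4 and 41.9 CPM in controls A1, B1, C1 and C6, and at 91.9, 72.6, 36.9 and 51.6 CPM in *RoraEKO* A3, B4, C2 and C3. The range within the controls was 3.39-fold, wider than any genotype difference among the 28 genes. Its log2 fold change was -0.28 ± 0.472 (SE; adjusted p = 0.807, edgeR quasi-likelihood test) and became 0.21 without control A1. Per kb of transcript, the ratio of *Insig1* to *Insig2* was 0.868 ± 0.562 in the controls and 1.202 ± 0.610 in the *RoraEKO* libraries, and the groups overlapped. The summed CPM of both genes was 172 ± 40.5 and 120 ± 16.4, with control C1 at 133 below *RoraEKO* A3 at 141.

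*Srebf2* (ENSMUSG00000022463) encodes SREBP2. Its controls A1, B1, C1 and C6 were at 99.9, 115, 109 and 110 CPM, and its *RoraEKO* libraries A3, B4, C2 and C3 at 128, 172, 135 and 125 CPM. The genotypes did not overlap, but the log2 fold change of 0.36 did not pass the cutoffs (adjusted p = 0.164, edgeR quasi-likelihood test). *Srebf1*, which encodes the SREBP-1 forms that favour fatty acid genes, was at 35.0 ± 6.70 and 37.0 ± 2.86 CPM, with overlapping genotypes. *Scap* was at 51.3 ± 5.94 and 61.2 ± 8.17 CPM (adjusted p = 0.361). The ratio of *Srebf2* to *Srebf1* per kb was 2.70 ± 0.376 in the controls and 3.24 ± 0.576 in the *RoraEKO* libraries.

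The mevalonate and isoprenoid steps had the most values above 0. Of 8 genes, 7 had a log2 fold change above 0, with a median of 0.19, and no gene passed the cutoffs, whereas 3 were higher and 1 lower at an unadjusted p under 0.05. *Acat2* (ENSMUSG00000023832), the thiolase that makes acetoacetyl-CoA, was at 32.0, 38.5, 42.9 and 30.6 CPM in controls A1, B1, C1 and C6. In *RoraEKO* A3, B4, C2 and C3 it was at 45.9, 72.4, 48.1 and 50.5 CPM. All *RoraEKO* libraries were above the controls, with a log2 fold change of 0.59 ± 0.188 (SE; adjusted p = 0.0908, edgeR quasi-likelihood test). DESeq2 (adjusted p = 0.0271) and the likelihood ratio test (0.0495) called it. *Acat2* has fractional counts in 6 of 8 libraries, as reads shared with other genes were divided by RSEM, and it overlaps *Tcp1* on the opposite strand.

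*Mvk*, mevalonate kinase, was at 83.9, 97.3, 97.9 and 87.8 CPM in controls A1, B1, C1 and C6 and at 108, 123, 112 and 114 CPM in *RoraEKO* A3, B4, C2 and C3. The ranges were apart, yet the log2 fold change was 0.32 (adjusted p = 0.13, edgeR quasi-likelihood test). *Ggps1*, which makes geranylgeranyl diphosphate, was the one gene of these steps with a value below 0. It was at 15.3, 14.2, 12.1 and 14.8 CPM in controls A1, B1, C1 and C6 and at 10.6, 10.7, 10.6 and 11.6 CPM in *RoraEKO* A3, B4, C2 and C3. The 4 *RoraEKO* libraries were below the controls, with a log2 fold change of -0.37 (adjusted p = 0.116, same edgeR test), and *Ggps1* overlaps *Arid4b* on the opposite strand.

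*Fdps*, farnesyl diphosphate synthase, had overlapping genotypes, with controls at 89.1 to 134 CPM and *RoraEKO* libraries at 130 to 217 CPM, the highest in B4. Its log2 fold change was 0.54 (adjusted p = 0.153, edgeR quasi-likelihood test), and its counts were fractional in all 8 libraries. *Hmgcs1*, the HMG-CoA synthase, was at 258 ± 59.3 and 267 ± 11.0 CPM. The remaining genes of these steps, *Pmvk*, *Mvd* and *Idi1*, act between mevalonate and isopentenyl diphosphate and its isomer, and had log2 fold changes of 0.07, 0.24 and 0.13, with adjusted p of 0.351 or more.

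The squalene and lanosterol steps did not separate the genotypes. *Fdft1* makes squalene, *Sqle* oxidizes it and *Lss* closes the ring to lanosterol, and their log2 fold changes were -0.06, 0.05 and 0.23. Neither direction had a gene at an unadjusted p under 0.05 in the edgeR test, and DESeq2 called none. *Sqle* was at 79.8 to 121 CPM in the controls and 94.6 to 131 CPM in the *RoraEKO* libraries.

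The 9 sterol steps after lanosterol had 6 log2 fold changes above 0 and a median of 0.17, and held *Dhcr7*, the reductase that yields cholesterol in the last step of a branch of the pathway. *Dhcr7* (ENSMUSG00000058454, chromosome 7, 143376740 to 143402149, plus strand) was at 134, 172, 152 and 170 CPM in controls A1, B1, C1 and C6. It was at 102, 122, 108 and 101 CPM in *RoraEKO* A3, B4, C2 and C3, each below every control. The mean was 157 ± 17.8 against 108 ± 9.59 CPM, a log2 fold change of -0.54 ± 0.104 (SE; adjusted p = 0.0352, edgeR quasi-likelihood test), which passed the adjusted p but not the 1.5-fold cutoff. At an adjusted p under 0.05 alone, 2 of 28 members were lower, *Dhcr7* and *Insig2*, against 3.55% of all genes, and none was higher, against 2.48%. The 0 higher depended on the test, since with DESeq2 *Ebp* (adjusted p = 0.00914), *Mvk* (0.0227) and *Acat2* (0.0271) were higher at that cutoff, against 4.59% of all genes. *Dhcr7* passed both cutoffs without control A1 or without *RoraEKO* B4, and its adjusted p was under 0.05 in 8 of 18 alternative fits, with a range of 0.00512 to 0.237.

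*Ebp*, the sterol isomerase and an X-linked gene, was at 85.1, 92.8, 90.04 and 91.7 CPM in controls A1, B1, C1 and C6 and at 114, 103, 115 and 116 CPM in *RoraEKO* A3, B4, C2 and C3. The genotypes were apart, with a log2 fold change of 0.32 (adjusted p = 0.106, edgeR quasi-likelihood test). *Cyp51*, the demethylase that starts on lanosterol, was at 113 to 208 CPM in the controls and 181 to 226 CPM in the *RoraEKO* libraries, with a log2 fold change of 0.40 (adjusted p = 0.289). The X-linked dehydrogenase gene *Nsdhl* had a log2 fold change of 0.29, and those of *Hsd17b7*, *Sc5d* and *Msmo1*, which encode a ketoreductase, a desaturase and a methyl oxidase, were 0.20, 0.17 and 0.02, with overlapping genotypes. *Tm7sf2* and *Lbr* encode alternative sterol reductases for the same step. They had log2 fold changes of -0.10 and -0.13, and the ratio of *Lbr* to *Tm7sf2* per kb was 0.359 ± 0.161 in the controls and 0.335 ± 0.0769 in the *RoraEKO* libraries. *Tm7sf2* overlaps *Vps51* on the same strand.

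In all, 4 members were higher without overlap of the genotypes (*Acat2*, *Mvk*, *Ebp* and *Srebf2*) and 3 were lower without overlap (*Ggps1*, *Dhcr7* and *Insig2*). These are 14.3% and 10.7% of the 28, against 5.4% and 7.54% of all genes tested (12.9% in either direction). Within each of the title letters A, B and C, 12 members were higher (42.9%, against 17.7% of all genes) and 5 lower (17.9%, against 25.1%) in the *RoraEKO* libraries.

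The 20 enzymes together, from *Acat2* to *Dhcr7*, summed to 1489, 1926, 2033 and 1864 CPM in controls A1, B1, C1 and C6, and 1904, 2186, 2013 and 1936 CPM in *RoraEKO* A3, B4, C2 and C3. The groups overlapped, at 1828 ± 236 and 2010 ± 126 CPM. Control A1 was the lowest of the 8 libraries for 15 of the 20 enzymes, and *RoraEKO* B4 was the highest for 7. Without A1 the median log2 fold change of the 28 genes was 0.10, and without B4 it was 0.06, so neither library turned its sign. Control A1 also had the highest sebocyte marker sum, 187 CPM. The basal markers were mixed. B4 was highest for *Krt14*, *Krt5* and, by little, *Itga6*, and lowest for *Krt15*, at 55.4 CPM. Control A1 was highest for *Col17a1*, at 53.6 CPM, and *Itgb4*, at 9.93 CPM. The part of these markers in the enzyme levels was not tested.

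**Figure D3:**
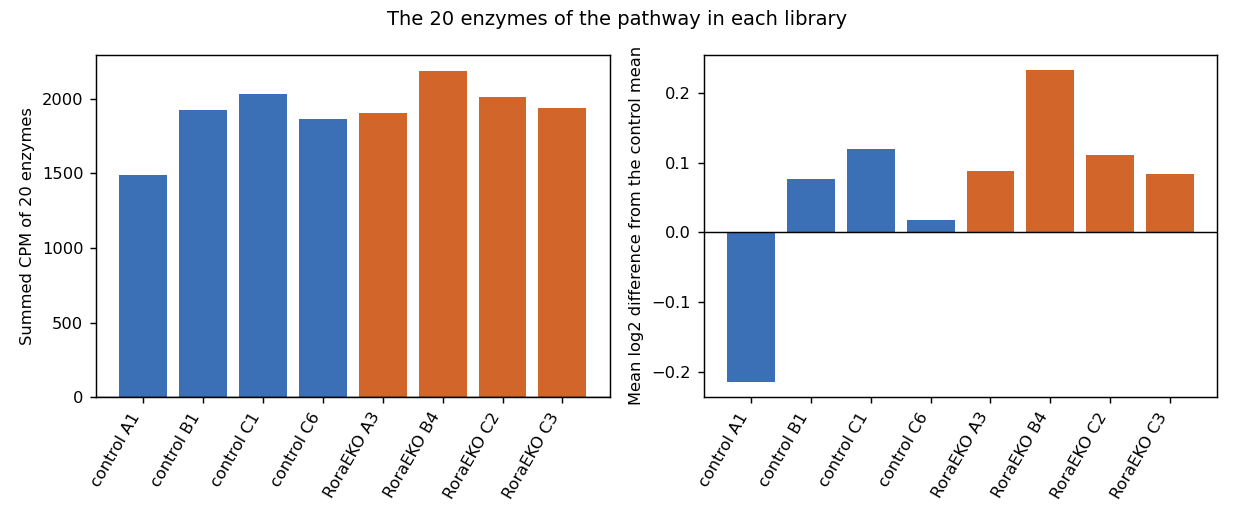
Left, summed CPM of the 20 enzymes in each library, and right, their mean log2 difference from the control mean (blue bars control, orange bars *RoraEKO*; 1 bar per library). Control A1 is lowest at 1489 CPM and *RoraEKO* B4 highest at 2186 CPM.

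The genes for transport, esterification and sulfation had no call in either direction and none at an unadjusted p under 0.05 in the edgeR test, nor with DESeq2. *Stard4*, a carrier of cholesterol between membranes, was at 59.8 to 98.4 CPM in the controls and 58.2 to 76.9 CPM in the *RoraEKO* libraries. *Sult2b1*, the sulfotransferase that makes cholesterol sulfate, was at 171 ± 6.36 and 194 ± 30.1 CPM, with *RoraEKO* B4 at 234 CPM. *Soat1*, the enzyme that esterifies cholesterol for storage, was at 44.7, 21.5, 11.2 and 8.30 CPM in controls A1, B1, C1 and C6 and at 27.6, 28.9, 4.38 and 19.0 CPM in *RoraEKO* A3, B4, C2 and C3. Its highest library was 5.39 times its lowest among the controls and 6.59 times among the *RoraEKO* libraries.

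**Figure D4:**
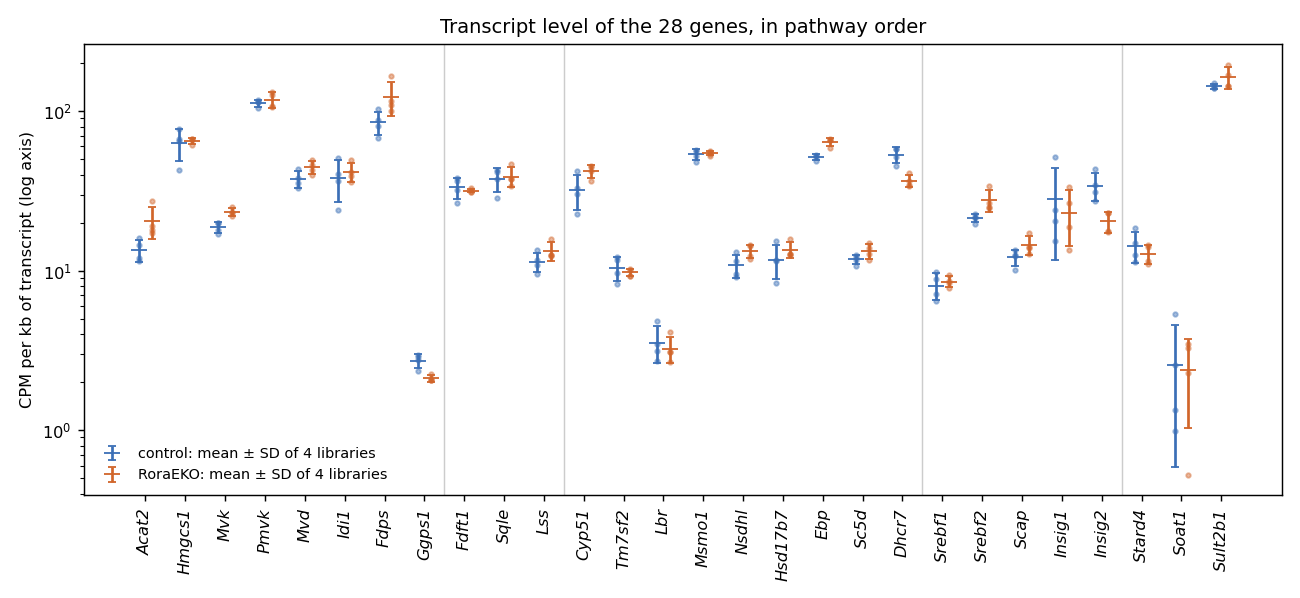
Level of each of the 28 genes in CPM per kb of its Ensembl canonical transcript, in pathway order (log axis; dots are libraries, bars mean ± SD of 4 libraries, blue control, orange *RoraEKO*; grey lines separate the roles). *Sult2b1* is highest, at 143 in the controls, and *Soat1* lowest, at 2.56.

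Levels of different genes were compared per kb of canonical transcript, as CPM per kb in the controls. *Sult2b1* was highest at 143 ± 5.33, followed by *Pmvk* at 112 ± 5.78 and *Fdps* at 84.9 ± 14.4. *Hmgcs1* (63.1 ± 14.5), *Msmo1* (53.5 ± 4.01), *Dhcr7* (53.2 ± 6.02) and *Ebp* (51.6 ± 1.94) came next and did not differ beyond their spread. *Soat1* (2.56 ± 1.97), *Ggps1* (2.73 ± 0.269) and *Lbr* (3.54 ± 0.925) were at the bottom and overlapped in the same way.

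*Soat1* and *Insig1*, singled out after their values were seen, varied with the hair keratins from library to library. The mean log2 CPM of 7 hair shaft keratins ran from 7.31 in control C6 to 9.54 in control A1. The 7 genes did not move alike in *RoraEKO* C2. There *Krt35* (2.99 CPM) and *Krt85* (26.6 CPM) were the lowest of the 8 libraries, while *Krt34* was the highest, at 1025 CPM. In control A1 *Krt35* reached 71.3 CPM. Over the 8 libraries, Pearson's r of the mean of the 7 keratins with log2 CPM of *Insig1* was 0.929 (exact permutation p = 0.000744, adjusted p = 0.0417). Spearman's rho was 0.905 (exact permutation p = 0.00456, adjusted p = 0.0852). For *Soat1* r was 0.877 (exact permutation p = 0.00434, adjusted p = 0.0653) and rho 0.929 (exact permutation p = 0.00223, adjusted p = 0.0625). Without control A1 and *RoraEKO* A3, the 2 libraries farthest from the median of the keratins, r was 0.795 for *Insig1* and 0.815 for *Soat1*. In the same 6 libraries *Acat2*, *Lss* and *Nsdhl* had an r of 0.875, 0.862 and 0.856, against 0.167, -0.0674 and 0.254 over all 8, so values of this size were not particular to *Insig1* and *Soat1* there. About the genotype means r was 0.993 for *Insig1*, 0.903 for *Soat1* and 0.947 for *Lbr*. With 4 libraries, each genotype is too small for a correlation of its own. Over all 8 libraries *Lbr* had an r of 0.872, and *Fdft1* and *Tm7sf2* had -0.860 and -0.863. *Fdft1* had the largest rho in size, -0.952 (exact permutation p = 0.00114, adjusted p = 0.0625). The relations of *Insig1*, *Soat1*, *Lbr*, *Fdft1* and *Tm7sf2* with the hair keratins are 5 of 56 computed, with 28 genes and both the hair shaft and the sebocyte list. The p-values were adjusted over all 56. The Pearson relation of *Insig1* alone had an adjusted p under 0.05.

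**Figure D5:**
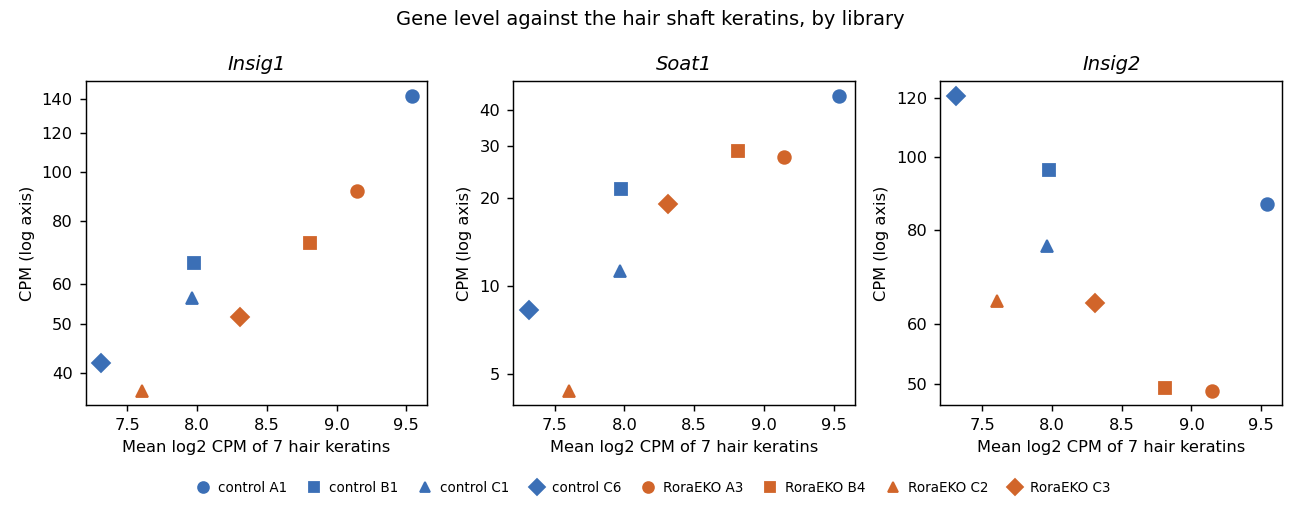
CPM (log axis) of *Insig1*, *Soat1* and *Insig2* in each library against the mean log2 CPM of 7 hair shaft keratins (blue symbols control, orange *RoraEKO*). *Insig1* and *Soat1* broadly climb with the keratins in both genotypes, and *Insig2* separates by genotype.

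*Insig2* had an r of -0.489 with the same keratins (exact permutation p = 0.218, adjusted p = 0.498; rho -0.500, exact permutation p = 0.216, adjusted p = 0.605). Its r was -0.787 without control A1 and *RoraEKO* A3, and -0.652 about the genotype means. The sebocyte markers gave no relation with an adjusted p under 0.05 by either measure. With them *Insig1* had an r of 0.745 (exact permutation p = 0.0334, adjusted p = 0.191) and a rho of 0.571 (exact permutation p = 0.151, adjusted p = 0.529). *Soat1* had an r of 0.771 (exact permutation p = 0.0254, adjusted p = 0.191) and a rho of 0.595 (exact permutation p = 0.132, adjusted p = 0.529). Without control A1 and *RoraEKO* C2, the 2 libraries farthest from the median of the sebocyte markers, r was 0.0991 for *Insig1* and 0.289 for *Soat1*, so these relations rest on those libraries. The largest r in size with the sebocyte markers was that of *Hmgcs1*, -0.815 (exact permutation p = 0.0136, adjusted p = 0.127). Its rho was -0.881 (exact permutation p = 0.00724, adjusted p = 0.101), and its r was -0.919 without the same 2 libraries. Whether hair follicle or sebaceous gland content accounts for the *Insig1* and *Soat1* levels was not tested.

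Genes of neighbouring pathways were examined through 6 lists with 73 genes, of which 63 were tested. Of these, 1 was higher (1.59%, against 2.3% of all genes) and 3 were lower (4.76%, against 3.22%) past the cutoffs, which is near the background. The higher gene was *Papss2*, which makes the sulfate donor that sulfotransferases such as SULT2B1 use. It rose from 1.17 ± 0.216 to 29.6 ± 15.3 CPM, a log2 fold change of 4.63 (adjusted p = 0.000238, edgeR quasi-likelihood test), with controls at 0.984 to 1.39 CPM and *RoraEKO* libraries at 16.4 to 50.4 CPM. *Papss2* passed the cutoffs in all 18 alternative fits. It was the only call among the 4 tested genes of the sulfation cycle and oxysterol list. The summed level of that list was 36.4 to 44.4 CPM in the controls and 59.8 to 88.4 CPM in the *RoraEKO* libraries. *Papss2* was thus a small part of the control sum.

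*Fnta*, the shared subunit of the enzymes that attach farnesyl and geranylgeranyl groups to proteins, fell from 72.4 ± 4.77 to 43.9 ± 0.507 CPM, a log2 fold change of -0.72 (adjusted p = 0.00242, edgeR quasi-likelihood test). It was the single call among 11 genes of the isoprenoid branch. The call was lost without both high-*Xist* controls (adjusted p = 0.0514, same edgeR test), where the log2 fold change was -0.587. *Acat1*, the mitochondrial acetoacetyl-CoA thiolase, fell from 46.2 ± 4.19 to 29.5 ± 4.74 CPM (log2 fold change -0.65, adjusted p = 0.0241, same edgeR test), and it passed in 10 of 18 alternative fits. Its call was lost with *Xist* as a covariate, without both high-*Xist* controls, and without control B1, C1 or C6 or *RoraEKO* B4, C2 or C3 (adjusted p of 0.0677 to 0.217). It belongs to a list of other esterification and acetyl-CoA supply genes, of which 4 were tested.

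Among 16 tested fatty acid genes known as SREBP-1 targets, none passed the cutoffs in the edgeR quasi-likelihood test or with DESeq2, and 1 was higher at an unadjusted p under 0.05. The median log2 fold change was 0.04. The same held for 17 tested genes of sterol uptake, transport and efflux, with 1 higher at an unadjusted p under 0.05 and a median of 0.02. Of 11 genes for SREBP processing and sterol degradation, none passed with either tool, and 1 in each direction had an unadjusted p under 0.05, with a median of -0.04.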

How the data were processed

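Total RNA from P4 dorsal epidermis, peeled after brief heat treatment, was sequenced from TruSeq Stranded mRNA libraries. The authors mapped reads to GRCm39 with STAR 2.5.3a and estimated counts with RSEM, and the deposited expected counts of 55416 genes are not normalized. Whether counting used strand is not given in the sources used here, and 12 of the 28 genes overlap a coding gene on the opposite strand. Groups came from the genotype labels. The study gives 4 mice per genotype, while the labels tie no library to an animal, and p-values cover the spread between these libraries, and floors and intervals cover counting error or that spread only.

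Here the counts were rounded, filtered with filterByExpr (13147 genes), scaled with TMM and tested with the edgeR 4.0.16 quasi-likelihood test in R 4.3.3, without covariates, with cutoffs of 0.05 for adjusted p and 1.5 for fold change. Intervals came from limma 3.58.1. The alternatives were RLE or library size scaling, other edgeR tests, DESeq2 1.42.0, 2 other count filters, the title letter as a block, *Xist* as a covariate, and libraries left out. The scripts were tested on simulated data. Every one of the 28 genes is named, and other lists are named only for genes past the cutoffs, 1 of which is counted but not reported here. The 28 genes and all lists were chosen with earlier results of these data known. Symbols came from GENCODE M39 and promoter windows from RefSeq (GRCm38.p6), placed on GRCm39 by exact match. *Sts*, listed for the sulfation cycle, was not matched.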

Additional observations from a re-analysis of the deposited data

Results flagged for a closer look

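Within the *RoraEKO* libraries, 4 genes had a library far from the other 3 by Dixon's test (gap over range past the 95% critical value). *Ggps1* was at 11.6 CPM in C3 and 10.6 to 10.7 CPM in the others. *Lss* was at 101 CPM in B4 and 78.3 to 80.1 CPM in the others. *Hsd17b7* was at 72.9 CPM in A3 and 58.2 to 58.9 CPM in the others. *Ebp* was at 103 CPM in B4 and 114 to 116 CPM in the others. In all, 56 groups were examined, and chance flags about 1 in 20. None of these genes passed the cutoffs.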

How the results depend on the processing

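The median of the 28 genes stayed above 0 in every alternative run, at 0.22 with *Xist* as a covariate, 0.27 without the 2 controls with high *Xist*, and 0.058 to 0.22 when single libraries were left out. The count of members called higher was 1 with the likelihood ratio test and with DESeq2. The count called lower was 0 with *Xist* as a covariate and without both high-*Xist* controls, 2 with no fold cutoff, and 0 to 2 when single libraries were left out. Other list counts moved as follows. For the isoprenoid branch it was 0 without the 2 high-*Xist* controls and 1 to 2 when single libraries were left out. For uptake, transport and efflux it was 0 to 2 and for fatty acid targets 0 to 1 over the same fits. For esterification and acetyl-CoA supply it was 1 with *Xist* as a covariate and without the 2 high-*Xist* controls, and 1 to 2 with single libraries left out. The cause was not tested.

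Some log2 fold changes near 0 changed sign. With library size alone, *Hmgcs1* was at -0.0096, *Sqle* at -0.00036 and *Msmo1* at -0.033, while the median of all genes moved to -0.10. *Fdft1* was at 0.12 with *Xist* as a covariate and 0.16 without the 2 high-*Xist* controls, where *Tm7sf2* was at 0.021 and *Stard4* at 0.014. With the title letter as a replicate block *Soat1* was at 0.058. When single libraries were left out, the ranges were -0.10 to 0.16 for *Hmgcs1*, -0.038 to 0.30 for *Idi1*, -0.16 to 0.031 for *Fdft1*, -0.068 to 0.17 for *Sqle*, -0.20 to 0.010 for *Tm7sf2*, -0.21 to 0.058 for *Lbr*, -0.022 to 0.11 for *Msmo1*, -0.012 to 0.19 for *Srebf1*, -0.45 to 0.21 for *Insig1*, -0.26 to 0.0089 for *Stard4* and -0.34 to 0.55 for *Soat1*.

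Over all genes, calls were 302 higher and 423 lower, against 478 and 553 with DESeq2, 176 and 289 with *Xist* as a covariate, and 147 and 167 without the 2 high-*Xist* controls. With single libraries left out the lowest counts were 174 higher and 283 lower, without control B1. The title letter did not pair libraries by their deviations from the genotype means under the criterion that every pair's correlation exceed 0.1, since B1 and B4 correlated at 0.0498 over 13147 genes. All 6 pairs with the same letter were above 0, with A1 and A3 at 0.483 and the 4 C pairs at 0.131 to 0.436, against -0.517 to 0.282 for the 10 pairs with different letters, which is a hint from the data and not from the labels. The replicate block on that letter gave 420 higher and 579 lower genes and left *Insig2* as the single call among the members (adjusted p = 0.0172 by edgeR and a log2 fold change of -0.75), with a median of 0.13, while *Acat2* (0.0380) and *Fdps* (0.0307) were higher at an adjusted p under 0.05 without the fold cutoff. Each member had at least 91 counts in every library.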
